A study of Mus musculus with 10 samples.

Results

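The genes described are the neighbours of Scn9a on mouse chromosome 2: every protein-coding gene of the GENCODE M21 annotation whose start lies within 5 Mb of the Scn9a gene, without the sodium channel genes of the Scn family. In GRCm38 that window runs from 61480080 to 71634962 and holds 62 protein-coding genes. Setting aside 5 Scn genes left 57 neighbours, 17 on the lower-coordinate side of Scn9a and 40 on the higher side, among 55401 gene identifiers in each file. Of the 57, 56 were listed in the files, and Gm26727 was not found there. None of the 57 overlapped the Scn9a gene body. The rule for a neighbour uses position and gene type, not expression.

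RNA sequencing was done on Neuro2a, a mouse neuroblastoma line labelled wild-type, after plasmid transfection with Lipofectamine (0.5 µg of each plasmid, 72 h of incubation). In the dCas9 arm, 3 libraries came from cells given the SCN9A-directed plasmid (dCas9-SCN9A) and 3 from cells given dCas9-empty. In the zinc-finger arm, 2 came from cells given ZF-SCN9A and 2 from cells given mCherry, a fluorescent protein, which served here as that arm's control. dCas9 binds DNA under the direction of a guide RNA without cutting it, while zinc fingers read DNA through their own amino acids. The repressor domains, the guide, the bound sequences, and what dCas9-empty holds in place of a guide were not given in the sources used here. All groups shared the cell line, the transfection and the incubation, and no untransfected group was analysed here.

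Scn9a encodes NaV1.7, a voltage-gated sodium channel of pain-sensing and sympathetic neurons. Repressors brought to a promoter by a DNA-binding protein act by recruiting partners that change chromatin, and such chromatin can extend from the bound site along the chromosome, so the genes beside a target are the usual place to look for effects reaching past it. The neighbours of Scn9a form no pathway: they include enzymes of the Golgi, a subunit of the intraflagellar transport machinery, a proteasome deubiquitinase, transcription factors and mitochondrial RNA-binding proteins, and what they have in common is their place on the chromosome.

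Library depth, as the sum of gene counts, was 17.8 to 19.0 M in dCas9-empty, 15.4 to 16.4 M in dCas9-SCN9A, 6.59 to 7.48 M in mCherry and 4.41 to 6.30 M in ZF-SCN9A, where M stands for 1e6. Levels are given as CPM, counts per 1e6 gene counts after TMM scaling. Markers of sympathoadrenal neuroblastoma above 1 CPM on average numbered 11, led by Chgb, Tubb3, Stmn2 and Hand2. Fewer cells carrying a plasmid and less RNA per cell cannot be told apart in these bulk libraries.

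The target itself was measured first. Scn9a stood at 75.3, 81.1 and 78.3 CPM in dCas9-empty and at 31.0, 30.8 and 28.2 CPM in dCas9-SCN9A. It stood at 62.4 and 56.3 CPM in mCherry and at 18.8 and 15.7 CPM in ZF-SCN9A. Both repressor groups lay below every control library of their arm. The log2 fold change was -1.38 ± 0.07 (SE) with dCas9 and -1.76 ± 0.14 with the zinc finger (edgeR's quasi-likelihood test, Benjamini-Hochberg adjusted p = 2.24e-09 and 1.71e-34). Of the Scn genes set aside, Scn3a was lower with the zinc finger (-0.45 ± 0.14, edgeR adjusted p = 0.0333), and its value with dCas9 was -0.22 ± 0.08 (adjusted p = 0.334). edgeR called none of Scn1a, Scn2a and Scn7a with either repressor. Their log2 fold changes were -0.02, 0.00 and 0.36 with dCas9 and -0.43, 0.10 and 0.48 with the zinc finger.

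The neighbours differed widely in how strongly Neuro2a cells expressed them. Enough counts for a test were found for 37 of 57 with dCas9 and for 35 with the zinc finger, and 35 were tested in both. The filter kept genes by their counts over both groups of an arm. The 5 tested neighbours with the highest level per kb of exon over the 5 control libraries were Ssb (84.2 CPM per kb), which encodes the La protein that binds the ends of new RNA polymerase III transcripts, Psmd14 (45.7), the deubiquitinase of the proteasome lid, Dync1i2 (25.3), an intermediate chain of dynein, Hat1 (22.0), which acetylates newly made histones, and Gorasp2 (21.9), a Golgi stacking protein. Scn9a stood at 5.53 CPM per kb on this scale. Among its nearest tested neighbours, Galnt3 (10.2), Ttc21b (9.04) and B3galt1 (8.78) stood above it and Csrnp3 (3.90) below it. The lowest level among the tested neighbours was that of Kcnh7, an ether-a-go-go-related potassium channel, at 0.220 CPM per kb.

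Another 20 neighbours could not be tested in either comparison. Gm26727 was one of them. In the files 7 were listed at 0 in all 10 libraries: Gcg, Gm21830, 4933409G03Rik, 4932414N04Rik, G6pc2, Myo3b and Erich2. The other 12 had at least 1 count: Tbr1, Slc4a10, Fap, Slc38a11, Xirp2, Nostrin, Abcb11, Dhrs9, Lrp2, Klhl41, Sp5 and Gad1. Their highest group mean was 1.27 CPM, that of Slc4a10 in mCherry. Several of these genes are best known from other tissues, such as Gcg, which encodes glucagon, from the pancreas and gut, and Tbr1, a cortical transcription factor. Tested and untested neighbours were interspersed along the chromosome.

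**Figure D1:**
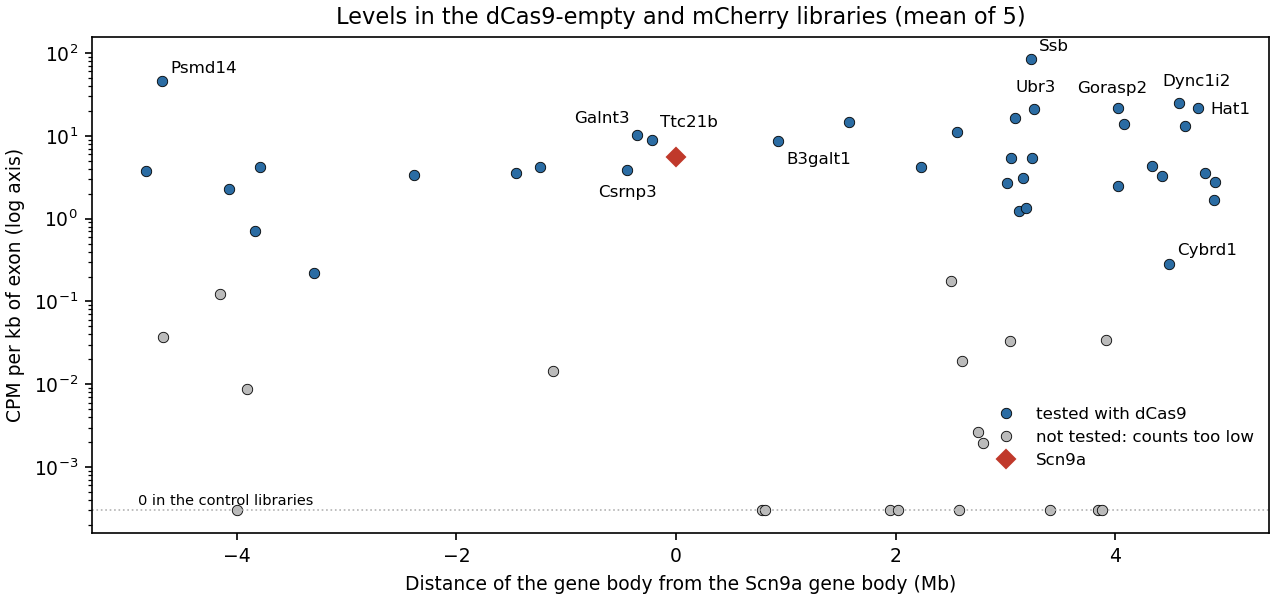
Level of each neighbour in the files, as CPM per kb of exon averaged over the 3 dCas9-empty and 2 mCherry libraries (log axis), against the distance of its gene body from that of Scn9a in Mb, with lower coordinates on the left. Blue points were tested with dCas9, grey points had too few counts, points on the dotted line are at 0 in the control libraries and the red diamond is Scn9a. Ssb is the highest at 84.2 CPM per kb, and tested and untested genes occur on both sides of Scn9a.

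The 4 tested neighbours within 1 Mb of the Scn9a gene body were Ttc21b, Galnt3, Csrnp3 and B3galt1. Ttc21b (ENSMUSG00000034848, minus strand, 66184327 to 66256617) encodes a subunit of the intraflagellar transport complex that returns cargo from the tip of the cilium, and ended 223.5 kb from Scn9a. Galnt3 (ENSMUSG00000026994, minus strand, 66082766 to 66124994) encodes a Golgi enzyme that starts O-linked glycans on proteins such as FGF23, 355.1 kb away. Csrnp3 (ENSMUSG00000044647, plus strand, 65845767 to 66031546) encodes a nuclear protein of the cysteine- and serine-rich family that activates transcription, 448.5 kb away. B3galt1 (ENSMUSG00000034780, plus strand, 67565871 to 68122689) encodes a Golgi galactosyltransferase and was the nearest tested neighbour on the other side, 930.9 kb away.

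The bases just before the start sites of the target and of these 4 neighbours are shown so that the start of the repressed gene can be compared with those beside it. They are RefSeq windows of up to 250 bases on chromosome 2 of GRCm38.p6, written 5′ to 3′ on the gene's own strand, with CG dinucleotides in capitals. They span chr2:66634963-66635212 for Scn9a, chr2:66256618-66256867 for Ttc21b, chr2:66124995-66125043 for Galnt3, chr2:65845517-65845766 for Csrnp3 and chr2:67565439-67565688 for B3galt1. For Galnt3 the 49 bases beyond the start of the GENCODE gene are printed, since the rest of its window falls inside the annotated gene. The B3galt1 window ends at a RefSeq start that lies 182 bases before the GENCODE start of that gene.
Scn9a: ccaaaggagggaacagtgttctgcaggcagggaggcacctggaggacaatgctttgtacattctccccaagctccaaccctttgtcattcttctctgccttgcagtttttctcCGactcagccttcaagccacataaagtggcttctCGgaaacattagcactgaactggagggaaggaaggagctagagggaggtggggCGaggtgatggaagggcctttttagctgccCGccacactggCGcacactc
Ttc21b: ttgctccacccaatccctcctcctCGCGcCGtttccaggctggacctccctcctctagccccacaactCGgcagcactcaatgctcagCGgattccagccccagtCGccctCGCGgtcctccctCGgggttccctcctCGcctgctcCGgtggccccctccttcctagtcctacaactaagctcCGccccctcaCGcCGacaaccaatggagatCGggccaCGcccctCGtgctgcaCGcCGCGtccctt
Galnt3: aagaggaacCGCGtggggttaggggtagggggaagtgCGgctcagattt
Csrnp3: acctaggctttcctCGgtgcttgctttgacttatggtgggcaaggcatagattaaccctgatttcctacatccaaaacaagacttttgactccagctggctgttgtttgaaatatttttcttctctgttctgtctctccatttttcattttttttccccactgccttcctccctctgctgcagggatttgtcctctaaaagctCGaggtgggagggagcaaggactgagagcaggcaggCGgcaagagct
B3galt1: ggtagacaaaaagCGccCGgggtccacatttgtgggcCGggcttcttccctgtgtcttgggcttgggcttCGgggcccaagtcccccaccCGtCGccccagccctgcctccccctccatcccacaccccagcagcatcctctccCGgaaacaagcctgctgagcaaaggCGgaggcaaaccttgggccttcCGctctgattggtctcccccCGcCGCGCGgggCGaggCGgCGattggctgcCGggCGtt

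The Scn9a window held 5 CG dinucleotides, and 55.6% of 32850 RefSeq promoter windows of this length held at least as many. Ttc21b had 20 (at least as many in 17.9% of all windows), B3galt1 had 18 (21.7%), Csrnp3 had 3 (71.0%), and the whole Galnt3 window had 34 (3.53%). Over the neighbours with a RefSeq window, the median was 18.5 CG dinucleotides for the 36 that were tested and 5 for the 17 that were not, beside 6 over all windows. This is a description of the 53 genes, not a test. The longest run of bases shared with the Scn9a window on either strand was 10 bases for Ttc21b, Galnt3 and Csrnp3 and 9 for B3galt1. For Galnt3 the whole window was searched, and the shared run is not in the bases printed. Runs of at least 10 occurred in 17.7% of all windows, and runs of at least 9 in 49.6%. Over all neighbours with a window the shared run was 7 to 11 bases, with a median of 9, and the longest belonged to Cybrd1, a plasma membrane ferric reductase.

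With dCas9-SCN9A the question was whether any neighbour moved with its target. Of the 37 tested neighbours 0 were called at an adjusted p under 0.05 by edgeR's quasi-likelihood test, where 0.041% of all 14628 tested genes were called. The log2 fold changes ran from -0.17 to 0.31, with 19 below 0 and 18 above. Their median was -0.00036 beside 0.0054 over all genes tested. At an unadjusted p under 0.05 there were 6 neighbours of 37, 1 higher and 5 lower, where 10.1% of all tested genes passed. That count fell to 2 with an offset for exon length or without dCas9-empty replicate 2, and to 3 with the strand column or without dCas9-empty replicate 3 or dCas9-SCN9A replicate 1. DESeq2 adjusted the p-values of 11 neighbours and called 0 (1.52% of the 4483 genes it adjusted), with 3 at an unadjusted p under 0.05. limma-voom called 0 of 37 (0.0273% of all genes), with 6 at an unadjusted p under 0.05.

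How large a change these libraries leave room for can be read from the intervals. The 95% interval of every tested neighbour with dCas9, 37 of 37, lay above a halving of the control level, as it did for 97.1% of all tested genes. For 29 of 37 the whole interval lay within 25% of the control level, as it did for 62% of all genes. All 37 intervals lay above the log2 fold change of Scn9a, as they did for 14513 of all 14628 tested genes. Each interval reached to either side of its estimate by a distance that had a median of 0.16 on the log2 scale and was widest, 0.687, for the weakly expressed Cybrd1.

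With dCas9, the closest neighbours had narrow intervals. Ttc21b stood at 98.5, 92.7 and 94.9 CPM in dCas9-empty and at 96.1, 88.6 and 90.0 CPM in dCas9-SCN9A. The 2 groups overlapped, and the log2 fold change was -0.06 ± 0.06 (95% interval -0.18 to 0.06, edgeR adjusted p = 0.772). Galnt3 stood at 53.5, 52.6 and 49.9 CPM in dCas9-empty and at 58.7, 50.6 and 48.6 CPM in dCas9-SCN9A. Its repressor libraries lay on both sides of the controls, and its log2 fold change was 0.02 ± 0.07 (-0.14 to 0.17, edgeR adjusted p = 0.96).

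Csrnp3 stood at 43.3, 44.6 and 49.3 CPM in dCas9-empty and at 40.4, 39.6 and 41.5 CPM in dCas9-SCN9A. All 3 repressor libraries lay below all 3 controls, by a small margin. Its log2 fold change of -0.17 ± 0.07 (-0.32 to -0.03) was the lowest of the 37 and did not pass edgeR's adjustment (adjusted p = 0.41). It was -0.09 with the exon length offset and -0.11 without dCas9-empty replicate 3, each with an unadjusted p above 0.05. B3galt1 stood at 56.0, 55.4 and 55.4 CPM in dCas9-empty and at 49.2, 50.2 and 51.1 CPM in dCas9-SCN9A. Its groups did not overlap either, and its log2 fold change was -0.15 ± 0.06 (-0.27 to -0.02, edgeR adjusted p = 0.414). Leaving out any 1 dCas9-empty library or dCas9-SCN9A replicate 1 gave -0.13 to -0.14, each with an unadjusted p above 0.05. Put to an exact permutation test on log2 CPM (two-sided), both genes and Scn9a itself reached p = 0.1, the smallest that 3 libraries against 3 can give.

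Further from Scn9a, 4 more neighbours had an unadjusted p under 0.05 with dCas9, and none passed the adjustment. Metap1d, a mitochondrial methionine aminopeptidase 4.82 Mb away, stood at 13.3, 15.4 and 15.8 CPM in dCas9-empty and at 18.8, 18.6 and 17.5 CPM in dCas9-SCN9A. All its repressor libraries were above all controls, with a log2 fold change of 0.30 ± 0.10 (0.10 to 0.51, edgeR adjusted p = 0.298). Ubr3, a ubiquitin ligase 3.26 Mb away, stood at 197, 200 and 203 CPM in dCas9-empty and at 187, 180 and 178 CPM in dCas9-SCN9A (log2 fold change -0.14 ± 0.05, edgeR adjusted p = 0.349). Its groups did not overlap, in the direction opposite to that of Metap1d, and its value was -0.08 with the exon length offset. Tlk1, a kinase of the histone chaperone Asf1, stood at 82.5, 89.2 and 89.0 CPM in dCas9-empty and at 81.4, 79.3 and 79.2 CPM in dCas9-SCN9A (-0.12 ± 0.06, edgeR adjusted p = 0.483). Cers6, a ceramide synthase, stood at 39.3, 40.5 and 35.5 CPM in dCas9-empty and at 36.5, 33.5 and 33.4 CPM in dCas9-SCN9A (-0.16 ± 0.08, edgeR adjusted p = 0.493). The Tlk1 groups did not overlap, and the Cers6 groups did. The Tlk1 value was -0.05 with the strand column.

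Libraries of the 2 dCas9 groups did not overlap for 8 of the 37 neighbours, where 15.6% of all tested genes showed this. Besides those above they were Cobll1 (log2 fold change -0.12 ± 0.07), Fastkd1 (0.07 ± 0.07) and Mettl8 (0.13 ± 0.08). Spc25, part of the kinetochore complex that binds microtubules, had a value of 0.13 ± 0.08, and Fign, a microtubule-severing enzyme, -0.12 ± 0.08. The most abundant neighbours stood close to 0, with -0.00 ± 0.06 for Psmd14 and 0.03 ± 0.05 for Ssb. Dync1i2 had a log2 fold change of -0.02 ± 0.05.

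**Figure D2:**
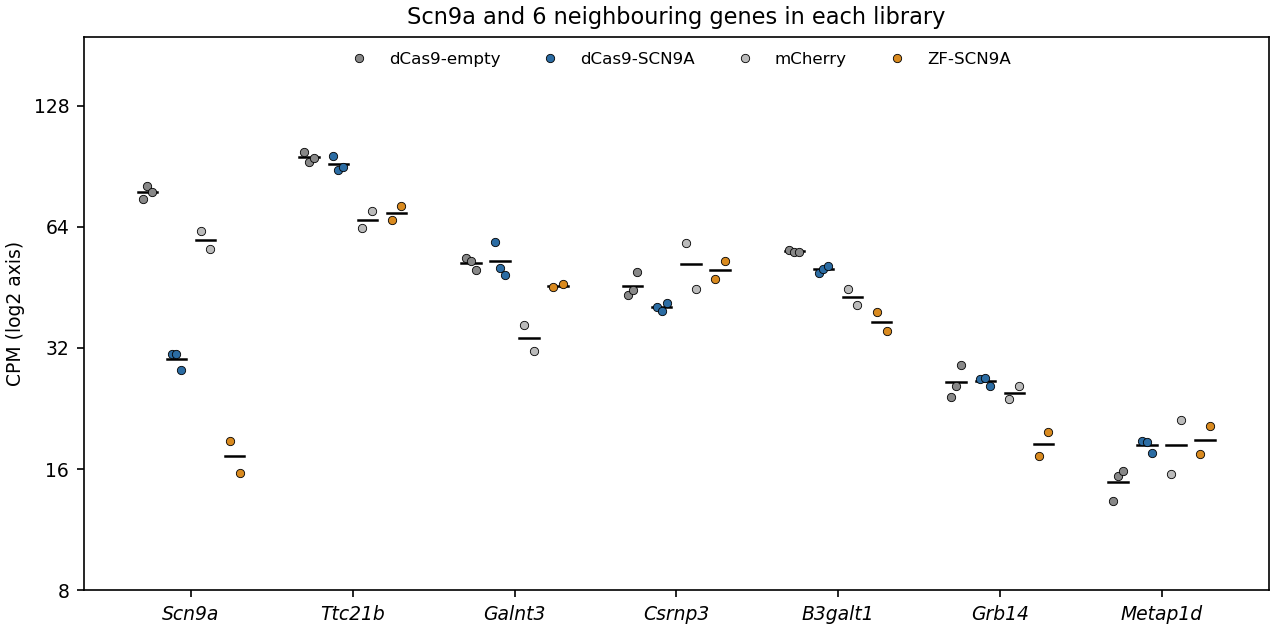
CPM of Scn9a and 6 of its neighbours in each of the 10 libraries (points, log2 axis), with black bars at the group means (n = 3 in each dCas9 group, n = 2 in mCherry and ZF-SCN9A). Scn9a lies at 28.2 to 31.0 CPM in dCas9-SCN9A and 15.7 to 18.8 CPM in ZF-SCN9A, far below its controls, and Galnt3 lies at 45.3 and 46.1 CPM in ZF-SCN9A, above 36.5 and 31.4 CPM in mCherry.

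With the zinc finger, 1 of 35 tested neighbours was called, Galnt3, which rose, where edgeR called 4.72% of all 12899 tested genes and 1.95% as higher. The log2 fold changes of the 35 ran from -0.44 to 0.43, with 19 below 0 and 16 above. Their median was -0.046 beside 0.0017 over all genes tested. At an unadjusted p under 0.05 there were 3 neighbours, Galnt3 higher and Grb14 and Psmd14 lower, where 16.2% of all genes passed. DESeq2 adjusted the p-values of 33 and called 0 (1.03% of the 11189 genes it adjusted), with 1 at an unadjusted p under 0.05. limma-voom called 1 of 35 (4.78% of all genes), with 3 at an unadjusted p under 0.05.

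Galnt3 stood at 36.5 and 31.4 CPM in mCherry and at 45.3 and 46.1 CPM in ZF-SCN9A. Both repressor libraries lay above both controls, with means of 34.0 ± 3.6 (SD, n = 2) and 45.7 ± 0.56 CPM (SD, n = 2). The log2 fold change was 0.43 ± 0.13 (95% interval 0.18 to 0.68, edgeR adjusted p = 0.0193), a rise of 34.7% with an interval of 13.6 to 59.7%, in the direction opposite to that of Scn9a. The exact permutation test with 2 libraries against 2 cannot go below p = 0.333, the value Galnt3, B3galt1 and Scn9a all gave. In the fit of this arm, 88% of genes took their spread wholly from that shared over genes, Galnt3 and Scn9a among them. The edgeR p-values of both genes with the zinc finger thus use no spread of their own. The call was lost in several alternatives: the adjusted p was 0.668 with DESeq2, 0.0593 with no filter on low counts, 0.0534 with all 10 libraries in 1 edgeR fit and 0.0733 with reads of 1 strand column. It was also lost when mCherry replicate 2 (edgeR adjusted p = 0.201), ZF-SCN9A replicate 1 (0.199) or ZF-SCN9A replicate 2 (0.170) was left out, while the log2 fold change stayed at 0.32, 0.44 and 0.42. The level of Galnt3 in both dCas9 groups, 48.6 to 58.7 CPM, lay above that of all 4 libraries of the zinc-finger arm. The arms were scaled separately and differed in plasmids and depth.

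The other neighbours within 1 Mb passed no test with the zinc finger. Ttc21b, the closest, stood at 63.4 and 70.0 CPM in mCherry and at 66.5 and 72.0 CPM in ZF-SCN9A, with overlapping groups and a log2 fold change of 0.05 ± 0.10 (-0.15 to 0.24, edgeR adjusted p = 0.885). Csrnp3 stood at 58.4 and 44.9 CPM in mCherry and at 47.5 and 52.7 CPM in ZF-SCN9A, the latter both between the controls (-0.05 ± 0.11, edgeR adjusted p = 0.899). B3galt1 stood at 44.8 and 40.8 CPM in mCherry and at 39.3 and 35.2 CPM in ZF-SCN9A. Its repressor libraries were the lower ones, with a log2 fold change of -0.19 ± 0.12 (-0.44 to 0.05, edgeR adjusted p = 0.484). It was -0.12 without mCherry replicate 1 or without ZF-SCN9A replicate 2.

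Grb14, an adaptor that binds and inhibits the insulin receptor, lies 1.46 Mb from Scn9a and had the lowest value of the 35. It stood at 23.8 and 25.7 CPM in mCherry and at 17.3 and 19.7 CPM in ZF-SCN9A. The groups did not overlap, and the log2 fold change of -0.44 ± 0.16 (-0.75 to -0.12) missed edgeR's adjusted threshold (adjusted p = 0.101). Psmd14, near the lower edge of the window, stood at 140 and 131 CPM in mCherry and at 120 and 122 CPM in ZF-SCN9A (-0.16 ± 0.08, edgeR adjusted p = 0.28). Dpp4, a cell-surface peptidase that inactivates incretin hormones, stood at 8.41 and 8.76 CPM in mCherry and at 13.3 and 9.08 CPM in ZF-SCN9A. Its groups did not overlap, 1 repressor library was close to the controls, and its log2 fold change was 0.41 ± 0.23 (edgeR adjusted p = 0.374). That value rested on 1 library: it was 0.08 without ZF-SCN9A replicate 1, and 0.63 when replicate 2 of that group was left out instead. Fastkd1, a mitochondrial RNA-binding protein, stood at 34.2 and 28.3 CPM in mCherry and at 27.7 and 23.4 CPM in ZF-SCN9A (-0.27 ± 0.14, edgeR adjusted p = 0.334). Both of its repressor libraries were below both controls, and its value ran from -0.42 without ZF-SCN9A replicate 1 to -0.13 without mCherry replicate 1.

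Without overlap between groups there were 20 of 35 neighbours with the zinc finger, where 45.6% of all tested genes showed this. Among the rest of those with the smallest p-values, the log2 fold change was 0.33 ± 0.19 for Phospho2, a phosphatase, and 0.23 ± 0.16 for Mettl8, which methylates mitochondrial transfer RNA. The Phospho2 value was 0.02 without ZF-SCN9A replicate 2, and 0.65 when replicate 1 of that group was left out instead. Hat1 had a log2 fold change of -0.19 ± 0.10 and Tlk1 -0.13 ± 0.09, which were -0.06 and -0.23 with the strand column. Of the abundant neighbours, Ssb had a value of -0.05 ± 0.07 and Dync1i2 -0.09 ± 0.07, and Gorasp2 had 0.11 ± 0.09. The 95% interval lay above a halving for 34 of 35 neighbours, as for 93% of all genes. The exception was Kcnh7, at 3.67 and 3.37 CPM in mCherry and 3.32 and 2.27 CPM in ZF-SCN9A, whose interval ran from -1.12 to 0.54. The interval lay within 25% of the control level for 15 of 35, as for 42.8% of all genes. It lay above the change of Scn9a for 35 of 35, as for 12777 of all 12899 tested genes. The median reach of an interval to either side was 0.261, wider than in the deeper dCas9 arm.

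The order of changes along the chromosome was described without a test, because genes of 1 window are not independent replicates. The Scn genes of the window, Scn3a among them, were left out of this order, and their values are given above. With dCas9 the median log2 fold change was -0.06 for the 3 tested neighbours within 0.5 Mb of Scn9a, -0.15 for the single gene between 0.5 and 1 Mb, -0.12 for the 5 between 1 and 2.5 Mb, and 0.01 for the 28 beyond 2.5 Mb. Values below 0 made up 7 of 9 within 2.5 Mb and 12 of 28 beyond it. Across the 37 genes Spearman's rho between distance and log2 fold change was 0.24. It was -0.11 over the 7 genes within 2 Mb, a number too small to describe a trend.

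Exon length moved along with distance. The 9 tested neighbours within 2.5 Mb had a median of 8342 exon bases and the 28 beyond it 5132. Longer genes had lower log2 fold changes with dCas9 among all tested genes (rho -0.35 across 14616 genes) and among the neighbours (rho -0.44 across 37). After an offset smooth in exon length, the median of the 9 near genes was -0.074, with 7 of 9 still below 0, and that of the far genes was 0.012. The part of exon length in the remaining difference was not tested.

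With the zinc finger no such order was seen. The medians were 0.05 for the 3 genes within 0.5 Mb, -0.19 for B3galt1, -0.09 for the 5 genes between 1 and 2.5 Mb and -0.03 for the 26 beyond. Values below 0 made up 5 of 9 within 2.5 Mb and 14 of 26 beyond it, and Spearman's rho with distance was -0.08 across 35 genes. The 2 largest values of opposite sign, those of Galnt3 and Grb14, belong to genes 0.355 and 1.46 Mb from Scn9a on the same side. Across the rest of chromosome 2, edgeR called 0 of 974 tested protein-coding genes with dCas9 (median -0.01) and 34 of 919 with the zinc finger (median 0.01).

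**Figure D3:**
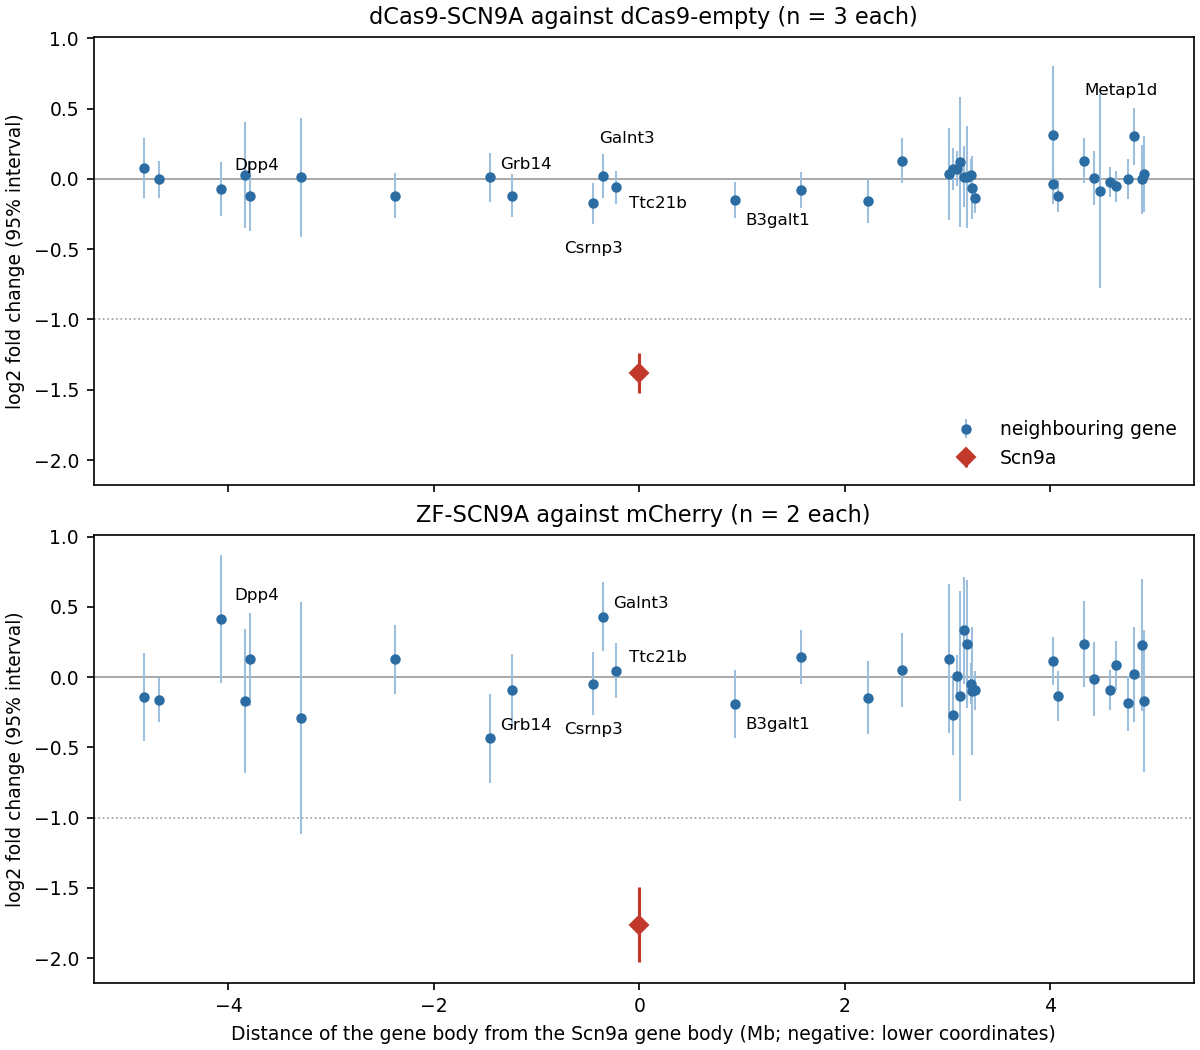
Log2 fold change with its 95% interval for each tested neighbour (blue points, 37 with dCas9 in the upper panel, 35 with the zinc finger in the lower) and for Scn9a (red diamonds) against the distance between gene bodies in Mb, with a dotted line at a halving. Scn9a lies at -1.38 and -1.76, the neighbours between -0.17 and 0.31 with dCas9 and between -0.44 and 0.43 with the zinc finger.

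Grouped by role, the neighbours gave 1 call in all. Over all tested genes edgeR called 0.041% with dCas9 and 4.72% with the zinc finger, and the few genes of a role cannot show a difference from those shares. Among the Golgi, glycosylation and lipid genes, Galnt3 was called with the zinc finger and B3galt1, Cers6 and Gorasp2 with neither repressor. The median of these 4 was -0.09 with dCas9 and -0.02 with the zinc finger. Of the 5 tested transcription and chromatin genes (Csrnp3, Tlk1, Hat1, Dlx1 and Dlx2) 0 were called, with 4 of 5 below 0 in each comparison and medians of -0.00 and -0.13. Dlx1 and Dlx2, homeobox genes of forebrain interneurons at the upper edge of the window, were expressed at 9.49 ± 0.73 and 7.61 ± 0.39 CPM in dCas9-empty (SD, n = 3). In dCas9-SCN9A they stood at 9.46 ± 0.52 and 7.80 ± 0.65 CPM (SD, n = 3).

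Of the 5 tested RNA and mitochondrial gene expression genes (Fastkd1, Ppig, Ssb, Mettl5 and Mettl8) 0 were called, with medians of 0.07 with dCas9 and -0.05 with the zinc finger. The 5 tested genes of cilium, spindle and motors (Fign, Ttc21b, Spc25, Bbs5 and Dync1i2) had medians of -0.02 and 0.05. The 4 of ubiquitin and proteasome (Psmd14, Klhl23, Ubr3 and Dcaf17) had medians of 0.00 and -0.05. The 6 tested signalling genes (Tank, Ifih1, Gca, Grb14, Cobll1 and Stk39) had -0.03 and -0.12. The 3 peptidase and metabolism genes (Dpp4, Phospho2 and Metap1d) had medians of 0.02 and 0.33. Of the transporters and channels, Kcnh7, Slc25a12 and Cybrd1 were tested with dCas9 (median -0.05), and Kcnh7 and Slc25a12 with the zinc finger (median -0.10). edgeR called 0 of all these in either comparison, beside 0.041% of all tested genes with dCas9 and 4.72% with the zinc finger.

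Ifih1, which encodes the double-stranded RNA sensor MDA5, stood at 4.11, 4.06 and 4.11 CPM in dCas9-empty and at 3.43, 4.46 and 4.63 CPM in dCas9-SCN9A. In the zinc-finger arm it stood at 8.87 and 7.68 CPM in mCherry and at 6.17 and 8.85 CPM in ZF-SCN9A. The groups of each arm overlapped. The predicted gene Gm26558, tested in the dCas9 arm alone, stood at 2.93, 4.06 and 3.49 CPM in dCas9-empty and at 5.56, 2.79 and 4.69 CPM in dCas9-SCN9A (log2 fold change 0.31 ± 0.23, edgeR adjusted p = 0.703). It was at 0.153 and 0 CPM in mCherry and 0.317 and 0.227 CPM in ZF-SCN9A. All 6 libraries of the dCas9 arm were thus above all 4 of the zinc-finger arm. The arms were scaled separately and differed in plasmids and depth. Of the exon bases of Gm26558, 21.5% overlap those of Gorasp2, so its level is uncertain.

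Whether the repressors differed was tested over all 10 libraries, as the change with dCas9 minus the change with the zinc finger. edgeR called 0 of 38 tested neighbours, where it called 0.907% of all 15766 tested genes. At an unadjusted p under 0.05 there were 4, where 10.9% of all genes passed. DESeq2 called 0 of 32 (1.49% of the 10559 genes it adjusted), with 2 at that level. limma-voom called 0 of 38 (0.71% of all genes), with 3 at that level. The 4 were Galnt3 (-0.41 ± 0.14, edgeR adjusted p = 0.207), Grb14 (0.45 ± 0.17, 0.266), Fastkd1 (0.35 ± 0.15, 0.375) and Dpp4 (-0.48 ± 0.23, 0.424). The call of Galnt3 with the zinc finger and its lack with dCas9 is therefore not a shown difference between the repressors. The next smallest p-value was that of Stk39, a kinase of cation-chloride cotransporters, at -0.22 ± 0.11 (edgeR adjusted p = 0.477).

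Across the 35 neighbours tested in both comparisons, Spearman's rho between the log2 fold changes was 0.0092, with 10 genes below 0 in both comparisons, 8 above 0 in both and 17 of opposite sign. The comparisons share no library. B3galt1 was the nearest gene with libraries apart from the controls in the same direction in both arms, at -0.15 and -0.19, and it was called in neither. Cobll1, Ubr3 and Tlk1 (lower) and Mettl8 (higher) also lay apart in the same direction in both arms, and Fastkd1 in opposite directions. Over all tested genes, groups lay apart for 15.6% with dCas9 and 45.6% with the zinc finger. The share of all genes apart in both arms was not counted, so these genes are not shown to stand out. As a share of all gene counts, the neighbours made up 0.188 ± 0.0024% in dCas9-empty (SD, n = 3), 0.187 ± 0.0038% in dCas9-SCN9A (SD, n = 3), 0.189 ± 0.0052% in mCherry (SD, n = 2) and 0.186 ± 0.0004% in ZF-SCN9A (SD, n = 2). Those shares differed between groups by less than the largest spread within a group.

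**Figure D4:**
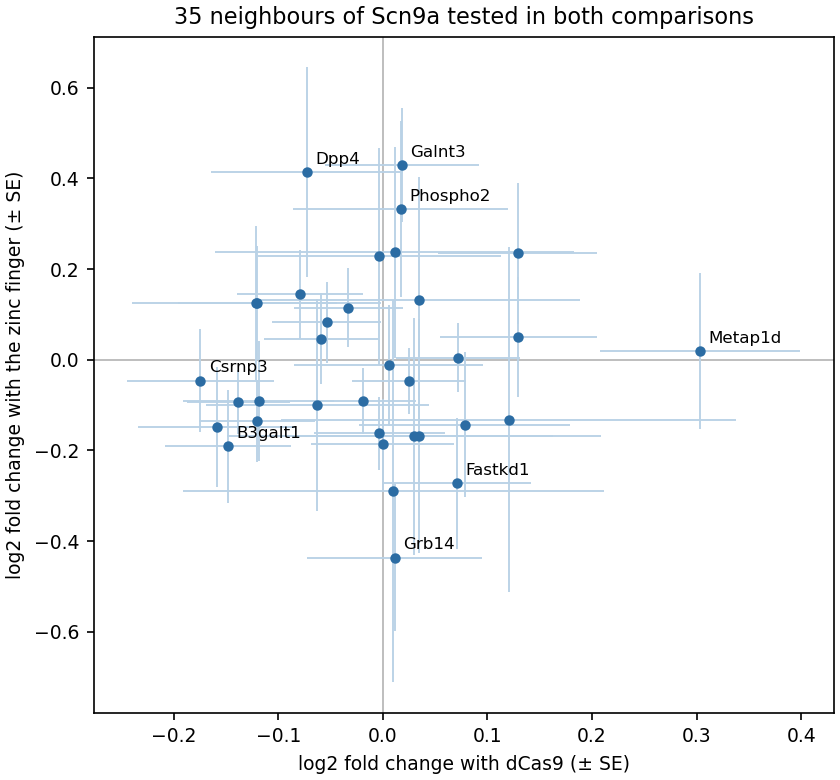
Log2 fold change with the zinc finger (vertical axis) against that with dCas9 (horizontal axis) for the 35 neighbours of Scn9a tested in both comparisons, with bars of 1 SE. Points scatter around 0 on both axes with a rho of 0.0092, and Galnt3, Dpp4 and Grb14 lie farthest from 0 on the zinc-finger axis.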

How the data were processed

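The authors deposited raw, unscaled counts of reads per gene for each of the 10 libraries, laid out like STAR output, and the unstranded column was used. Tools named per the submitters' processing notes are bcl2fastq 2.20, STAR 2.7.3a and DESeq2, with the build GRCm38. Their annotation release was not given in the sources used here. Whether replicates were separate cultures is not in the labels, so the p-values rest on the spread of these samples alone, which may be technical. No replicate pair was close enough in a chi-square test to be 1 library deposited again.

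Entries that name no gene (25.8 to 27.9% of listed reads by group mean) and 4 plasmid entries were left out of library sizes. Counts were tested in R 4.3.3 with the quasi-likelihood method of edgeR 4.0.16 (TMM scaling, filter by group, robust fit, two-sided), in a separate fit per arm with 4 and 2 residual degrees of freedom, with Benjamini-Hochberg adjustment over all tested genes and calls at an adjusted p under 0.05. The biological coefficient of variation was 6.07% (dCas9) and 5.12% (zinc finger). The fits were tested on simulated data in which all genes shared 1 such coefficient, so differences in spread between genes were not covered. DESeq2 1.42.0 and limma-voom (limma 3.58.1) were alternatives. Distances are gaps between gene bodies in GENCODE M21.

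The rule for members uses position, but the window, role lists and tests were chosen with earlier results of these data known. Genes named per comparison were those called, the 10 with the smallest p and those within 1 Mb, plus the 5 with the highest level per exon length. Ifih1, Gm26558, Kcnh7, Cybrd1, Dlx1 and Dlx2 were added after their values were seen. Without strand, reads of exons that overlap cannot be told apart. Overlaps above 5% of a gene's exon bases, among tested neighbours, touch Gca (20.4%, with Kcnh7), Ssb (20.0% shared with Gm13625 and 7.82% with Mettl5), Mettl5, Phospho2, Gm26558, Gorasp2 (with Tlk1) and Dlx1. Smaller overlaps touch Kcnh7 (4.57%), Dpp4 (3.67%), Tlk1 (3.55%), Mettl8, Dcaf17, Cobll1, Csrnp3 and Scn9a itself (1.41%).

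Markers of other cells were also counted. Of 5 fibroblast markers 4 stood above 1 CPM (summed 7.99 to 19.8 CPM per library), of 4 glial markers 1 (Mbp, mean 23.4 CPM; summed 20.0 to 32.1, Gfap, Aqp4 and Sox10 under 1), of 3 immune markers 1 (Cd68, mean 1.27 CPM; summed 0.743 to 2.29, Ptprc and Csf1r under 1) and of 3 endothelial markers 1 (Pecam1, mean 20.3 CPM; summed 14.4 to 24.1, Cdh5 and Kdr under 1). None was at 0 in all libraries. Mbp and Pecam1 stood near the neuroblastoma markers Gata3 (21.1 CPM) and Dbh (21.2 CPM), and their part in the results was not tested. Another marker on the neuroblastoma list is not reported here, so the 11 given are not the whole list. Those 11 summed to 3834 to 4317 CPM in the dCas9 arm and 2913 to 3059 CPM in the zinc-finger arm.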

Additional observations from a re-analysis of the deposited data

How the results depend on the processing

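Each alternative run called 0 neighbours with dCas9 and 0 for the difference between repressors, though with dCas9 DESeq2 adjusted the p-values of only 11. Every DESeq2 share given here is of the genes whose p-values it adjusted. Over all genes the share called ran from 0.00663% (without dCas9-SCN9A replicate 3) to 1.79% (replicate block) with dCas9, and from 1.03% (DESeq2) to 5.91% (without mCherry replicate 2) with the zinc finger. For the difference it ran from 0.423% (without ZF-SCN9A replicate 1) to 2.72% (replicate block). With the zinc finger the count of 1 fell to 0 with no filter, with DESeq2, with all 10 libraries in 1 fit and with the strand column, and ranged from 0 to 1 when each library was left out, where the lone sample left in a group is assumed to vary like the other group. It was 1 with the other scalings, the 1 CPM filter, limma-voom and the exon length offset. The zinc-finger median of -0.046 was 0.0145 with the strand column, 0.00139 with the exon length offset and -0.0630 to 0.0317 without 1 library. The zinc-finger rho with distance (-0.08) was -0.14 with the strand column, -0.36 in a 2 Mb window and -0.15 to 0.0241 without 1 library, and the dCas9 rho (0.24) was -0.11 in a 2 Mb window and 0.13 to 0.38 without 1 library. The causes were not tested.

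After group means were taken off, same-numbered samples correlated at 0.238, 0.161 and 0.0397 with dCas9, and samples of unlike number at -0.226 to 0.101. With 2 libraries per group, all zinc-finger pairs had the same size, 0.0662, with a plus sign for same-numbered samples. Whether same-numbered samples were paired is not in the labels and cannot be settled from these values. With a replicate block the counts of called neighbours were 0 with dCas9, 1 with the zinc finger and 0 for the difference, beside 1.79%, 4.41% and 2.72% of all genes (0.041%, 4.72% and 0.907% with no block).

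Uncalled values near 0 changed sign in some settings. With dCas9, Hat1 was 0.00132 (DESeq2 size factors), 0.0182 (plain library size), 0.0101 (1 CPM filter), 0.00238 (limma-voom), 0.00125 (replicate block) and 0.0778 (strand column). Psmd14 was 0.0159 (plain library size) and 0.00715 (1 CPM filter), and with the exon length offset Dync1i2 was 0.0250 and Ssb -0.0115. With 1 library left out in turn, dCas9 values ran from -0.0397 to 0.0700 for Hat1, -0.0493 to 0.0602 for Psmd14, -0.0487 to 0.00668 for Dync1i2, -0.00135 to 0.0727 for Ssb and -0.0600 to 0.0773 for Galnt3. With the zinc finger, Csrnp3 was 0.00139 with the exon length offset and -0.23 to 0.15 without 1 library, Ttc21b -0.0196 to 0.12 and Ssb -0.11 to 0.0155. For the difference, B3galt1 ran from -0.0216 to 0.14 and Csrnp3 from -0.32 to 0.0655. The zinc-finger arm had both fewer libraries and fewer counts per library.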

Other observations

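The window also held 80 annotated genes that do not code for protein, 79 of them listed in the files. Enough counts for a test were found for 6 with dCas9, 3 with the zinc finger and 7 for the difference between repressors. edgeR's quasi-likelihood test called 0 in each, where it called 0.041%, 4.72% and 0.907% of all tested genes. An unadjusted p under 0.05 was reached by 0 in each, where 10.1%, 16.2% and 10.9% of all tested genes passed. So few genes cannot show a difference from those shares. The long noncoding RNA Gm13632, 4.24 Mb from Scn9a, was the most abundant, with means of 6.11 CPM in dCas9-empty, 5.37 CPM in dCas9-SCN9A, 4.37 CPM in mCherry and 4.85 CPM in ZF-SCN9A. Its log2 fold changes were -0.19 ± 0.15 (SE) with dCas9 and 0.17 ± 0.34 with the zinc finger. Dlx1as, annotated antisense to Dlx1, had a log2 fold change of 0.52 ± 0.39 with dCas9 at means of 0.496 and 0.718 CPM. It shares 335 exon bases with Dlx1, 6.21% of those of Dlx1, and reads there cannot be told apart without strand.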
